A study of Mus musculus with 12 samples.

Results

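Collagen genes code for the chains of the collagens, the main structural proteins of the extracellular matrix. The genes described here are all protein-coding genes of the deposited gene tables whose symbol has the form Col, a type number, a and a chain number. The rule found 44 genes among 55573 in all, of which 21900 are protein-coding. It reads names and biotypes, not expression values. By class they are 11 fibril-forming chains, 9 chains of collagens that lie on fibrils, 6 basement membrane (type IV) chains, 6 beaded-filament (type VI) chains, 3 chains of hexagonal networks, the anchoring chain Col7a1, 2 multiplexins, 4 transmembrane collagens and 2 others.

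RNA was sequenced from 12 cultures of mouse embryonic fibroblasts (MEFs) immortalised with SV40 large T antigen, 3 cultures per group, harvested untreated 24 h after plating. The groups are Fadd-/-Mlkl-/- cells with an empty vector (called Fadd knockout here), Fadd-/-Mlkl-/- cells in which Fadd was expressed again from a vector (Fadd restored), Casp8-/-Mlkl-/- cells with an empty vector (Casp8 knockout) and Casp8-/-Mlkl-/- cells in which Casp8 was expressed again (Casp8 restored). Mlkl is deleted in all 4 groups, so no group is wild type. FADD links death receptors to caspase-8, a protease that triggers apoptosis and holds back necroptosis, and MLKL is the membrane-damaging effector of necroptosis. The labels call the cultures independent. How many embryos or clones each line came from, and the promoter of the vectors, are not given in the sources used here, so differences between the lines cannot be told apart from differences between the starting cells. P-values then measure the spread between these cultures, which may be in part technical.

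Fibroblasts are the main source of fibril-forming collagen in the body. Collagen chains are made in the endoplasmic reticulum, hydroxylated on proline and lysine, wound into a helix of intertwined chains, secreted, trimmed by propeptide proteases and cross-linked by lysyl oxidases. Type I collagen is normally built from the products of Col1a1 and Col1a2, with more of the first chain than of the second, and mouse strains or patients that lack the second chain can still form helices from the first alone. Type V collagen starts and limits the width of type I fibrils, type III runs beside them in soft tissue, and type XII binds to their surface. Type IV makes the sheet of basement membranes and type VI a microfibril network around cells.

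The targeted genes read as labelled. Fadd was at 0.02, 0.01 and 0.01 TPM (transcript abundance scaled for transcript length and depth) in Fadd knockout cells, against 4.24, 3.05 and 3.99 TPM in Fadd restored cells. Casp8 was at 3.51, 3.11 and 3.34 TPM in Casp8 knockout cells, against 28.6, 70.8 and 76.5 TPM in Casp8 restored cells, so transcript of the deleted gene was still counted. Mlkl transcript was counted in all 12 libraries, at 1.43 to 6.22 TPM, and does not check its deletion. Libraries held 33918359 to 59388559 counts. The defining fibroblast markers Vim and Pdgfra were at 432 to 1216 TPM and 0.60 to 8.35 TPM. Of the 10 fibroblast genes listed, 7 exceeded 1 TPM in at least 1 Fadd knockout library, and 8 did so in each other group. Thy1, at 0.06 TPM or less, and Fap, at 0.32 TPM or less, did not in any library. The defining markers of epithelial (Epcam, Cdh1), endothelial (Pecam1, Cdh5), leukocyte (Ptprc), cartilage (Acan), bone (Sp7, Bglap), muscle (Myod1) and glial (Sox10) cells were at 0 to 0.22 TPM, with Sox10 and Cdh5 at 0 throughout. The replicate 1 libraries stood apart: on the first principal component over all genes tested, which held 52.3% of the variance, those of the Casp8 line lay at 22.3 (knockout) and 36.3 (restored) and its other libraries at 81.9 to 102.8, while the Fadd line lay at -113.9 to -38.3. Calls gained without these 4 libraries are given beside the gene or in the paragraph on these libraries.

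For 35 of the 44 genes the RefSeq promoter table for build GRCm38.p6 held a window, 38 windows in all. The 250 bases before the start are printed for Col1a2 and Col6a3, the genes with the widest gaps between groups, and for Col6a4, which differed between the restored groups in the other direction. Capitals mark CCAAT as well as TATAA and GGGCGG, searched on both strands, so their reverse complements count; no hit overlaps another in the 3 windows. The starts are those of RefSeq; for Col1a2 and Col6a4 they lie inside the gene bounds of GENCODE, which span all its transcripts, so these windows lie wholly (Col1a2) or partly (Col6a4) within the gene as bounded there.
Col1a2 chr6:4505368-4505617 (+ strand): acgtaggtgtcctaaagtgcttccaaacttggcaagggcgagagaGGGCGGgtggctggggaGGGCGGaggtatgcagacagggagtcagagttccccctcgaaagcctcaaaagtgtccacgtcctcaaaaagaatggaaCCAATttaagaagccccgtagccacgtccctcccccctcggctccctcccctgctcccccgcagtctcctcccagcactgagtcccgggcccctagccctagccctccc
Col6a3 chr1:90843972-90844221 (- strand): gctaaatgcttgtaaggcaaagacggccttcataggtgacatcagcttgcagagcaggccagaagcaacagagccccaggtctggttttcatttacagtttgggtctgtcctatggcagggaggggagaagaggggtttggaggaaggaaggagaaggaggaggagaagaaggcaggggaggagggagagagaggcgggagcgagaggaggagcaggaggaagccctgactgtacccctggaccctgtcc
Col6a4 chr9:106096692-106096941 (- strand): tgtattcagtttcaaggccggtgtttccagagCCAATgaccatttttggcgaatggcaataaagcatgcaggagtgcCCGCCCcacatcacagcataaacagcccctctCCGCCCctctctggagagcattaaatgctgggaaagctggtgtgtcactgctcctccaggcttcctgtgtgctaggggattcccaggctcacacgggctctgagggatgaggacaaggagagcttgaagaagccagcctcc
The Col1a2 window has CCAAT beginning 109 bases before the start and GGGCGG beginning 205 and 188 bases before it, with 11 CpG dinucleotides and 62% G and C. The Col6a3 window has none of the 3 motifs and 3 CpG dinucleotides. The Col6a4 window has CCAAT at 218 and GGGCGG at 173 and 141 bases before the start and 5 CpG dinucleotides. Over all 32851 windows of this length in the table, 33.85% hold CCAAT, 22.78% TATAA and 32.74% GGGCGG, with a median of 6 CpG dinucleotides; of the 38 collagen windows, 13 hold CCAAT, 7 TATAA and 22 GGGCGG. Matches are letters in a window and say nothing of binding. Col1a1 has no entry.

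Collagen transcripts differed in amount and in kind between the 2 lines. The 44 genes together reached 433, 393 and 259 TPM in Fadd knockout cells, against 745, 602 and 367 TPM in Fadd restored cells. They reached 775, 1943 and 2758 TPM in Casp8 knockout cells, against 2059, 1435 and 1223 TPM in Casp8 restored cells. In summed TPM every library of the Casp8 line was above every library of the Fadd line, at the nearest by 775 against 745 TPM. As a share of expected counts or of protein-coding TPM the lines overlapped. There Casp8 knockout replicate 1 (0.651 and 0.214%) lay below Fadd restored replicate 1 (0.679 and 0.248%). Within each line the knockout and restored ranges of summed TPM overlapped. Library by library, however, each of the 3 Fadd knockout libraries was below the Fadd restored library of the same replicate number, in collagen TPM, in the share of type I chains, in Col1a1 and in Col5a2; a sign-flip test of 3 pairs cannot give an exact p under 0.25. Type I chains made up 15.4, 18.7 and 9.29% of collagen TPM in Fadd knockout cells and 33.2, 30.8 and 18.5% in Fadd restored cells. They made up 41.8, 58.4 and 57.0% in Casp8 knockout cells and 68.5, 54.9 and 51.8% in Casp8 restored cells. Col1a2 was the collagen gene with the most TPM in all 6 Casp8-line libraries. In the Fadd line Col5a2 led in 4 libraries, with Col6a1 leading in Fadd knockout replicate 1 and Col1a1 in Fadd restored replicate 1. These are shares of RNA in bulk cultures, where fewer cells making a collagen and less RNA per cell cannot be told apart.

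**Figure D1:**
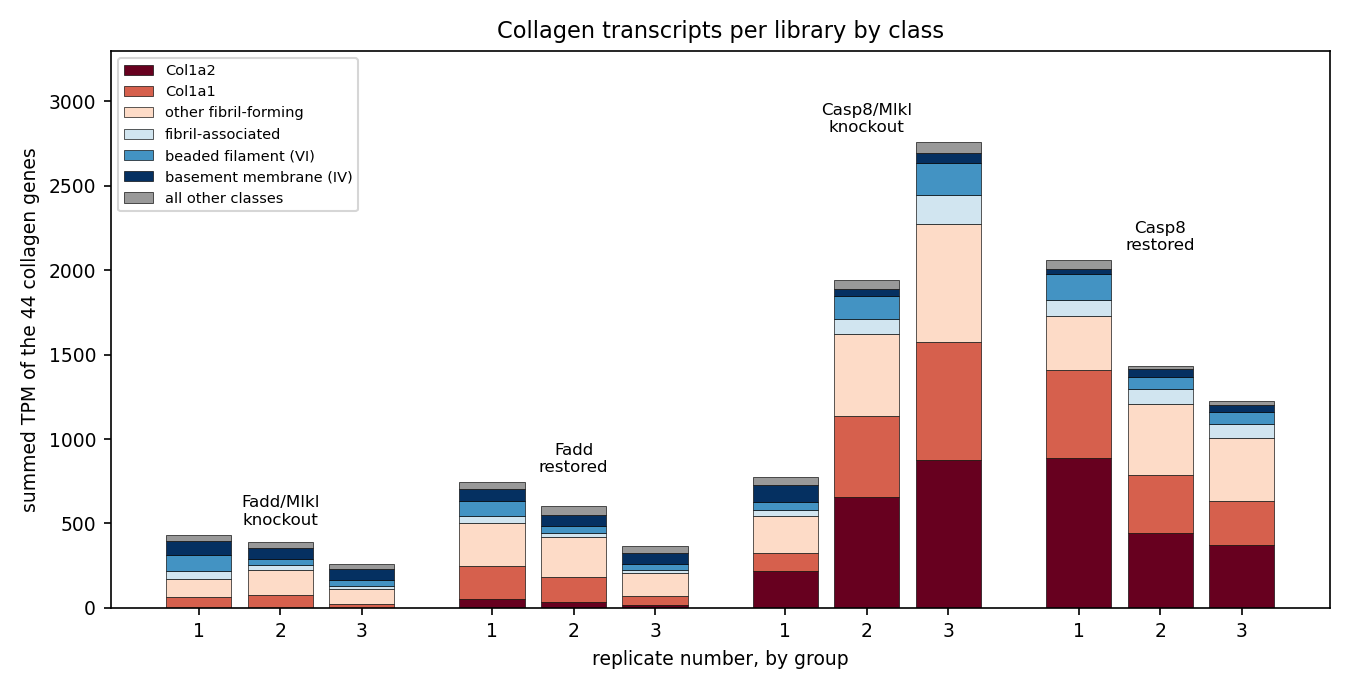
Summed TPM of the 44 collagen genes in each of the 12 libraries, stacked by class, with Col1a1 and Col1a2 drawn apart. Fadd-line bars end between 259 and 745 TPM and Casp8-line bars between 775 and 2758 TPM, and the Col1a2 segment is too thin to see in the 3 Fadd knockout bars.

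Of the 44 genes, 29 had enough counts to be tested. All tests below are edgeR quasi-likelihood tests over 16396 genes, with Benjamini-Hochberg adjusted p-values and calls at an adjusted p under 0.05. Comparisons that share a group of libraries (for example both comparisons of Fadd knockout cells) are not independent. In the Fadd line, knockout over restored, 1 of the 29 was called, lower, against 1.52% of all genes tested. In the Casp8 line, knockout over restored, 0 of the 29 were called by edgeR and limma-voom and 1 by DESeq2, against 0.0061% of all genes tested in edgeR; 6 had an unadjusted p under 0.05, beside 5.67% of all genes tested. Between the knockout groups, Fadd over Casp8, 1 was called higher and 8 lower, against 10.5% of all genes tested (3.46% higher and 7.01% lower). The gene called higher, Col25a1, passed the filter on low counts only through the Fadd knockout group. Between the restored groups, Fadd over Casp8, 2 were called higher and 5 lower, against 6.34% (2.93% higher and 3.4% lower). The test of the difference between the changes in the 2 lines called 1, lower, against 0.842%. DESeq2 called 3 of the 29 in the Fadd line, 1 in the Casp8 line, 1 in the difference between lines, 14 between the knockout groups and 9 between the restored groups, against 4.25, 0.872, 2.56, 16.8 and 12.6% of all genes. The median log2 change of the 29 was -0.18 in the Fadd line, 0.36 in the Casp8 line, -0.47 between the knockout groups and -0.26 between the restored groups, while the medians over all genes tested lay within 0.0121 of 0.

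**Figure D2:**
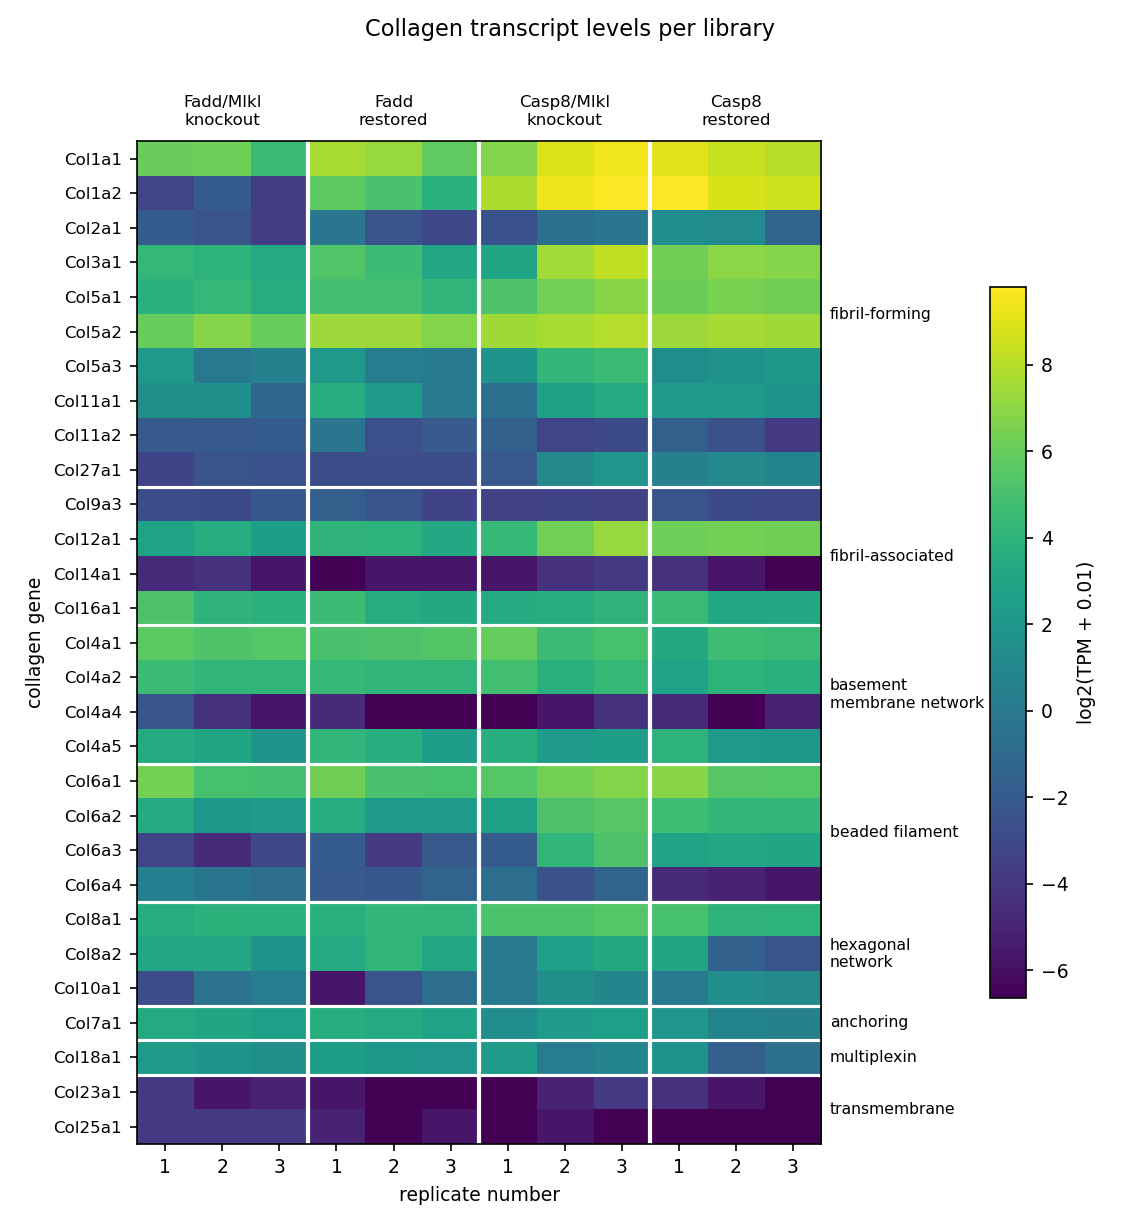
Level of each of the 29 tested collagen genes (rows, by class) in each of the 12 libraries (columns, by group and replicate number), as log2 of TPM plus 0.01 on the colour scale. Col1a2 is dark in the 3 Fadd knockout columns, Col6a3 is dark in all Fadd-line columns and in Casp8 knockout replicate 1, and Col6a4 is darkest in the Casp8 restored columns.

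Col1a2, which codes for the second chain of type I collagen, was the collagen gene called in the Fadd line. It is on chromosome 6 at 4504814 to 4541544, plus strand (GENCODE M21, GRCm38), ENSMUSG00000029661.16. It was at 0.10, 0.26 and 0.07 TPM in Fadd knockout cells, against 51.8, 33.2 and 14.1 TPM in Fadd restored cells. Casp8 knockout cells had 218, 658 and 876 TPM, against 886, 441 and 375 TPM in Casp8 restored cells. The Fadd knockout libraries were the lowest of all 12, with no overlap with any other group; the Fadd restored libraries lay below both Casp8-line groups, and the Casp8-line groups overlapped. The Fadd knockout values rest on 55, 113 and 29 counts, so the gene was detected in each library. Col1a2 fell in Fadd knockout cells by 7.70 on the log2 scale relative to Fadd restored cells (SE 0.78, edgeR adjusted p = 0.000557), a 208-fold lower level. In the Casp8 line the change was 0.06 (SE 0.57, edgeR adjusted p = 0.999), with a sign that turned under some settings; without the replicate 1 libraries it was 0.87 (edgeR adjusted p = 0.214). The difference between the 2 changes was -7.76 (SE 0.92, edgeR adjusted p = 0.00236). Fadd knockout cells were below Casp8 knockout cells by a log2 change of -11.78 (SE 0.91, edgeR adjusted p = 4.57e-05), and Fadd restored cells were below Casp8 restored cells by -4.02 (SE 0.65, edgeR adjusted p = 0.00668). Without the replicate 1 libraries the Fadd-line change was -7.09 (edgeR adjusted p = 0.000855).

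Col1a1, which codes for the first chain, is on chromosome 11 at 94936224 to 94953042, plus strand, ENSMUSG00000001506.10. It was at 66.4, 73.2 and 24.0 TPM in Fadd knockout cells, against 196, 152 and 53.8 TPM in Fadd restored cells. Its level in Casp8 knockout cells was 106, 477 and 696 TPM, against 525, 348 and 258 TPM in Casp8 restored cells. The Fadd-line groups overlapped, because Fadd restored replicate 3 lay among the knockout values, and the Casp8-line groups overlapped as well. The Fadd-line change was -1.17 (SE 0.64, edgeR adjusted p = 0.641) and the Casp8-line change 0.16 (SE 0.63, edgeR adjusted p = 0.999), or 0.89 without the replicate 1 libraries (edgeR adjusted p = 0.301). With the replicate number as a block within each line the Fadd-line change was -1.15 (edgeR adjusted p = 0.379). Between the knockout groups, Fadd over Casp8, Col1a1 was lower by a log2 change of -2.74 (SE 0.67, edgeR adjusted p = 0.0249), with no overlap. That call did not survive the loss of any 1 knockout library except Casp8 knockout replicate 1 (adjusted p up to 0.0907) and in a fit of the knockout libraries alone (adjusted p = 0.0703). Between the restored groups the change was -1.41 (edgeR adjusted p = 0.237).

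The 2 chains of type I collagen can be set against each other within a library, which needs no scaling between libraries. Col1a1 was 664, 281 and 343 times Col1a2 in TPM in Fadd knockout replicates 1, 2 and 3, against 3.78, 4.595 and 3.81 times in Fadd restored replicates. In the Casp8 line Col1a2 was the higher of the pair, at 2.05, 1.38 and 1.26 times Col1a1 in knockout cells and 1.69, 1.27 and 1.45 times in restored cells. The Fadd knockout, Fadd restored and Casp8-line libraries formed 3 ranges that did not overlap, while the 2 Casp8-line groups shared a range. The mean log2 ratio of Col1a2 to Col1a1 (0.01 TPM added to each) was -8.52 ± 0.63 in Fadd knockout cells and -2.02 ± 0.16 in Fadd restored cells, and 0.61 ± 0.37 in Casp8 knockout cells and 0.54 ± 0.21 in Casp8 restored cells (SD, n = 3 each). The difference in the Fadd line was -6.50, a ratio 90.6-fold lower in knockout cells; by a two-sided exact permutation test p was 0.1, the smallest that 3 libraries against 3 allow. The same p was reached between the knockout groups (difference -9.13) and between the restored groups (difference -2.56), and in the Casp8 line the difference was 0.06 with an exact permutation p of 0.9. Adjusted over these 4 comparisons, the exact permutation p-values were 0.133 in each of the first 3 and 0.9 in the Casp8 line, so none passes 0.05 in a design of this size.

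**Figure D3:**
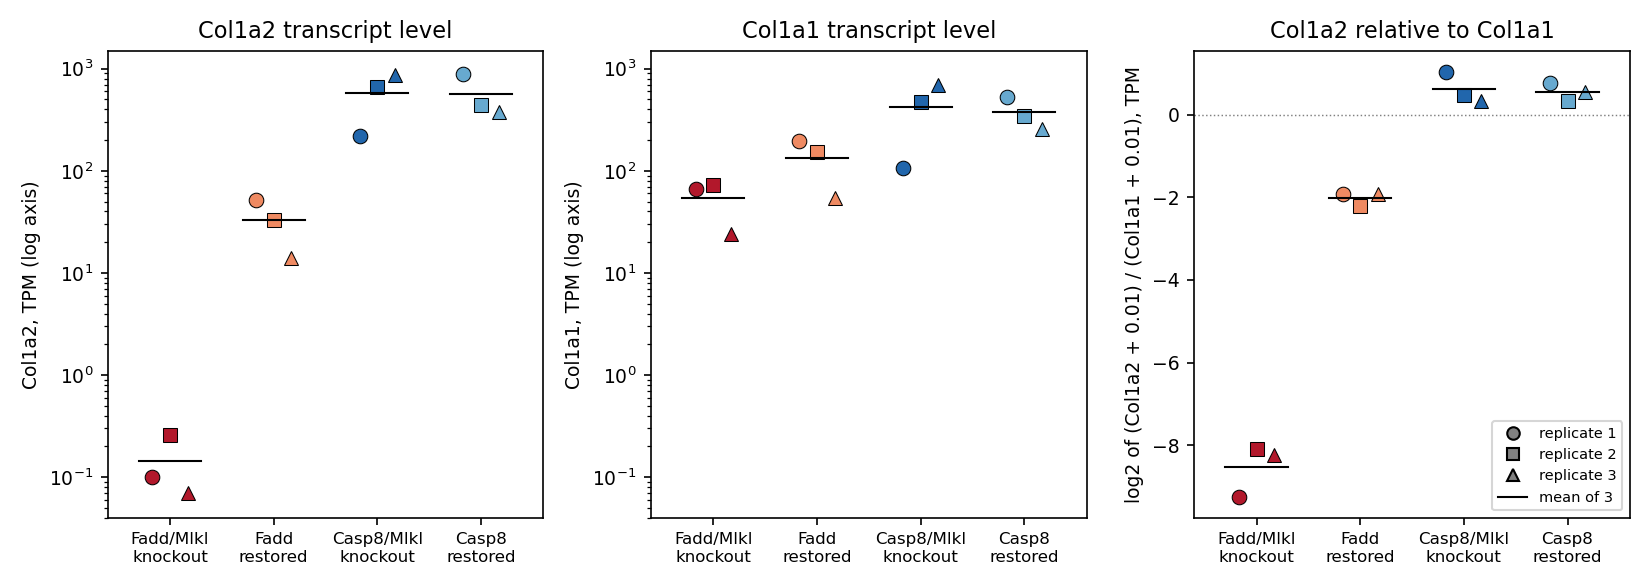
Col1a2 and Col1a1 levels in TPM (log axes, left and middle) and the log2 ratio of Col1a2 to Col1a1 with 0.01 TPM added to each (right), 1 point per library with the shape giving the replicate number and the line the mean of 3. The Fadd knockout points for Col1a2 lie at 0.07 to 0.26 TPM, while their Col1a1 points lie at 24.0 to 73.2 TPM.

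Genes beside Col1a2 were read for the same comparison. Within 500 kb of it, 6 protein-coding genes are annotated (Gng11, Bet1, Casd1, Sgce, Peg10 and Ppp1r9a), and all were tested. In the Fadd line 0 were called by edgeR, against 1.52% of all genes tested. There 3 had an edgeR unadjusted p under 0.05, a count with no share over all genes beside it here. Casd1, the nearest at 59.3 kb, was at 7.79, 7.96 and 5.64 TPM in Fadd knockout cells, against 10.7, 7.90 and 4.91 TPM in Fadd restored cells (log2 change -0.01, edgeR adjusted p = 1). The imprinted genes Sgce and Peg10 had log2 changes of -0.81 (edgeR adjusted p = 0.312) and -1.63 (edgeR adjusted p = 0.192). Gng11, which codes for a G protein gamma subunit, had -1.47 (edgeR adjusted p = 0.0833); its difference between the lines was called (-2.75, edgeR adjusted p = 0.0297), as was its level between the restored groups (1.96, edgeR adjusted p = 0.012). Around Col1a1, 19 of 27 neighbours were tested and 0 were called in either line by edgeR. At an unadjusted p under 0.05 there were 4 in the Fadd line, again with no such share, and 0 in the Casp8 line, beside 5.67%. Fadd over Casp8, 1 was called higher between the knockout groups and 2 between the restored groups, and 0 lower, against 10.5% and 6.34% of all genes. Dlx4, at 1.36 TPM or less, was higher in both (5.085 and 4.71, edgeR adjusted p = 0.0253 and 0.0436). Fam117a was higher between the restored groups (2.34, edgeR adjusted p = 0.044).

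Among the other fibril-forming genes, no change within a line passed the test, and the differences lay between the lines. The class, type I chains included, held 10 tested genes. Between the knockout groups 5 were called lower (Col1a1, Col1a2, Col5a1, Col5a2 and Col27a1) and 0 higher, against 7.01% and 3.46% of all genes tested. Between the restored groups 3 were called lower (Col1a2, Col5a1 and Col27a1) and 0 higher, against 3.4% and 2.93%. Col5a1, the first chain of type V collagen, was at 14.3, 19.6 and 11.61 TPM in Fadd knockout cells, against 36.9, 78.1 and 117 TPM in Casp8 knockout cells. It was at 28.9, 28.9 and 18.4 TPM in Fadd restored cells, against 68.4, 88.7 and 75.6 TPM in Casp8 restored cells. The lines did not overlap in either pairing. The log2 changes were -2.15 between knockout groups (SE 0.35, edgeR adjusted p = 0.00307) and -1.55 between restored groups (SE 0.34, edgeR adjusted p = 0.0242). The restored call did not survive the loss of any 1 restored library except Casp8 restored replicate 1 (adjusted p up to 0.0971).

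Col5a2, the second chain of type V, varied least of the abundant fibril-forming genes. It was at 62.7, 110.1 and 62.3 TPM in Fadd knockout cells, against 165, 170.3 and 106 TPM in Fadd restored cells. Levels in Casp8 knockout cells were 172, 201 and 244 TPM, against 164, 191 and 174 TPM in Casp8 restored cells. Fadd knockout replicate 2 lay above Fadd restored replicate 3, so the Fadd-line groups overlapped by that pair. The Fadd-line change was -0.80 (SE 0.24, edgeR adjusted p = 0.181), which DESeq2 called (adjusted p = 0.0385) and the within-line replicate block did not (-0.82, edgeR adjusted p = 0.0574). Between the knockout groups Col5a2 was lower by -1.21 on the log2 scale (SE 0.24, edgeR adjusted p = 0.01), and between the restored groups the change was -0.21 (edgeR adjusted p = 0.693). The ratio of Col5a2 to Col5a1 in TPM was 4.39 to 5.61 in Fadd knockout and 5.72 to 5.89 in Fadd restored libraries, and 2.08 to 4.64 in Casp8 knockout and 2.16 to 2.40 in Casp8 restored libraries.

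Col3a1, the chain of type III collagen, showed how much Casp8 knockout replicate 1 departs from its group. Its level was 20.1, 15.5 and 10.5 TPM in Fadd knockout cells, against 8.15, 179 and 303 TPM in Casp8 knockout cells. It was 41.0, 25.1 and 9.40 TPM in Fadd restored cells, against 74.5, 123 and 114 TPM in Casp8 restored cells. The knockout groups overlapped through that 1 library, and the restored groups did not overlap. The log2 change between knockout groups was -3.11 (SE 0.94, edgeR adjusted p = 0.0594), and -3.67 without Casp8 knockout replicate 1 (edgeR adjusted p = 0.00221). Col27a1, a fibril-forming chain best known from cartilage, was at 0.09 to 0.18 TPM in all 6 Fadd-line libraries, against 0.23, 2.12 and 3.75 TPM in Casp8 knockout cells and 1.39 to 2.10 TPM in Casp8 restored cells. It was lower in the Fadd line both between knockout groups (-3.37, edgeR adjusted p = 0.0123) and between restored groups (-3.53, edgeR adjusted p = 0.0172). The knockout call was lost without Fadd knockout replicate 1 (adjusted p = 0.0519), in limma-voom and in the fit of the knockout libraries alone, and the restored call was lost in limma-voom and without any restored library other than Casp8 restored replicate 1 (adjusted p up to 0.0765).

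With all 12 libraries and no block, the remaining fibril-forming genes passed no edgeR test in the fit filtered on low counts. Col5a3, the remaining type V chain, was at 4.51, 0.99 and 1.45 TPM in Fadd knockout cells, against 3.56, 18.6 and 23.4 TPM in Casp8 knockout cells (log2 change -2.48, edgeR adjusted p = 0.076). That difference was called by DESeq2 (adjusted p = 0.00806), with no filter on low counts (edgeR adjusted p = 0.0462), without Fadd knockout replicate 1 (-3.46, edgeR adjusted p = 0.0431), without Casp8 knockout replicate 1 (-2.94, edgeR adjusted p = 0.023) and without all replicate 1 libraries (-3.93, edgeR adjusted p = 1.91e-05). It was at 2.56 to 4.37 TPM in Casp8 restored cells, and its Casp8-line change was 2.09 (edgeR adjusted p = 0.75). Here too Casp8 knockout replicate 1 lay apart from the other Casp8 knockout libraries. Col11a1, a type XI chain, ranged from 0.47 to 12.2 TPM over the 12 libraries without a call. Col2a1, the collagen of cartilage, was at 2.7 TPM or less and Col11a2 at 0.85 TPM or less in every library; Col11a2 was called between the knockout groups with the replicate number as a block over all libraries (1.78, edgeR adjusted p = 0.0463).

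**Figure D4:**
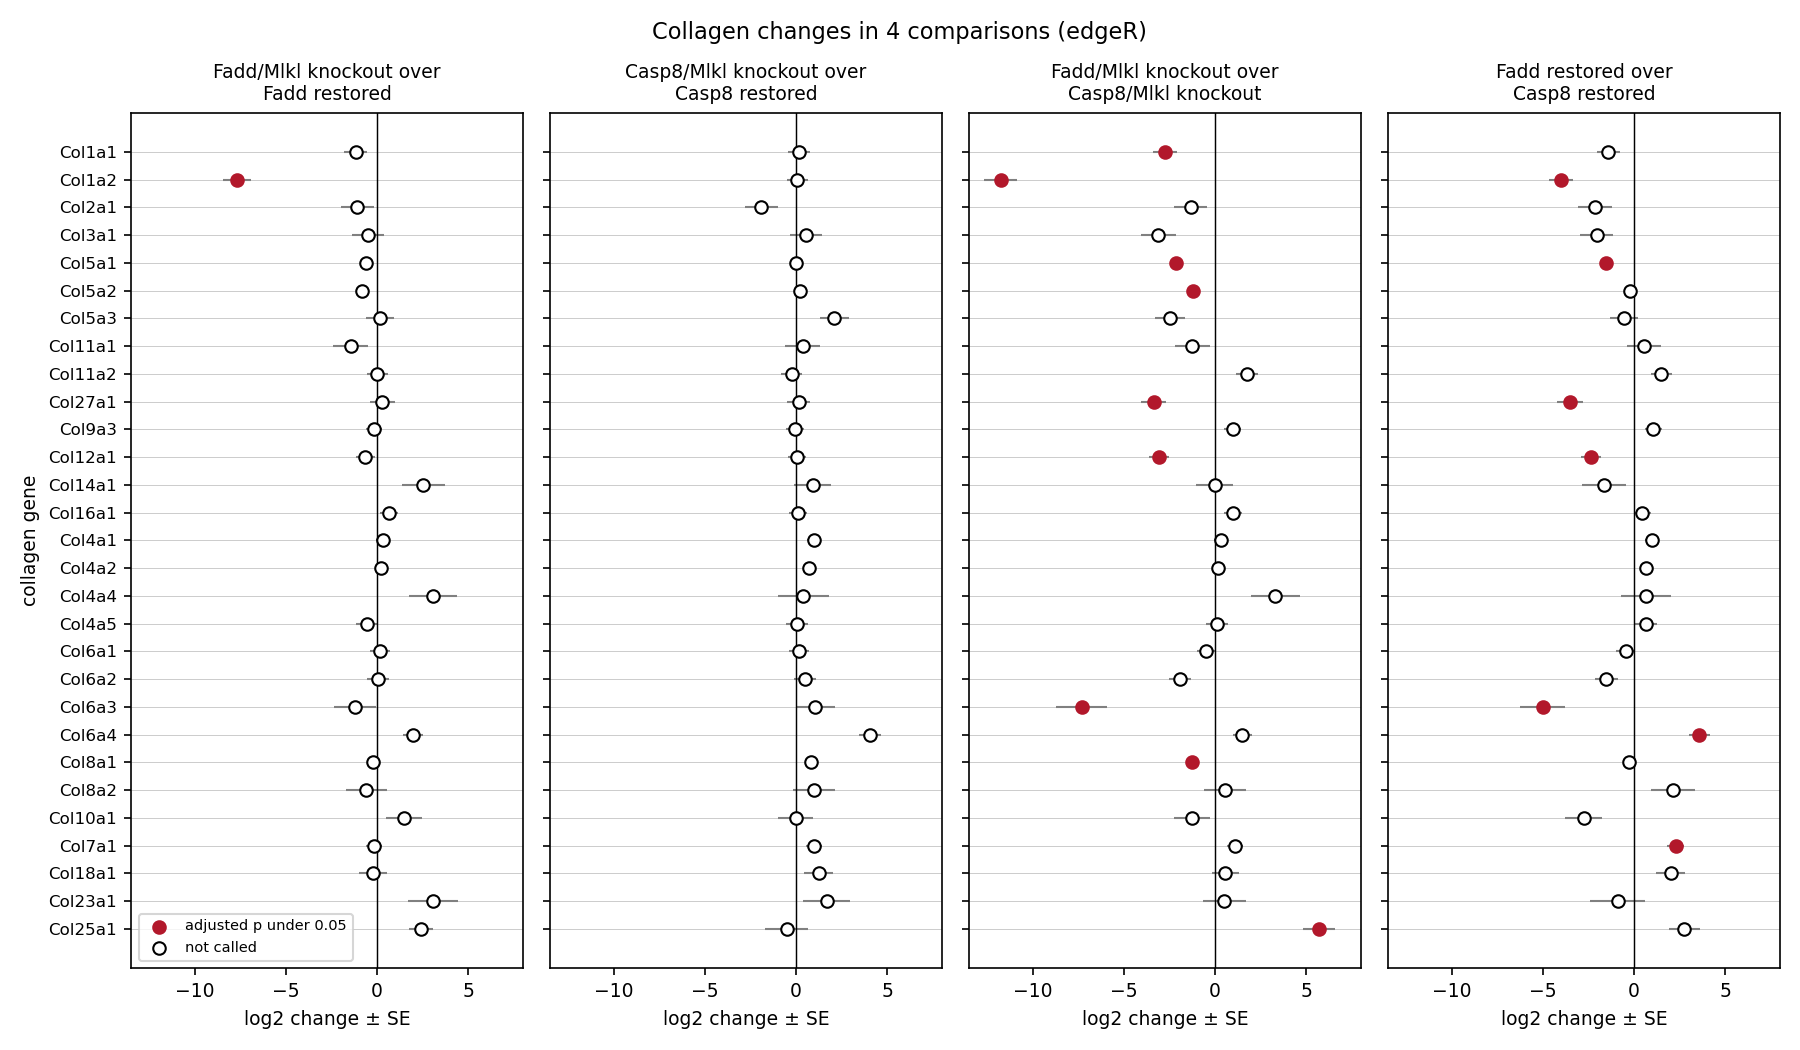
Log2 change ± SE of the 29 tested collagen genes in 4 comparisons, with filled points where the edgeR adjusted p is under 0.05. Col1a2 is the filled point of the Fadd-line panel at -7.70, the Casp8-line panel has none, and the panels between the lines have 9 and 7.

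Of the fibril-associated collagens, 4 of 9 genes were tested and Col12a1 was called. Type XII collagen decorates type I fibrils. Col12a1 was at 7.26, 12.3 and 5.96 TPM in Fadd knockout cells, against 20.3, 77.4 and 152 TPM in Casp8 knockout cells. It was at 16.3, 16.1 and 9.51 TPM in Fadd restored cells, against 72.6, 80.4 and 75.9 TPM in Casp8 restored cells. The lines did not overlap, and Casp8 knockout replicate 1 was the lowest of its line. The log2 change was -3.07 between the knockout groups (SE 0.56, edgeR adjusted p = 0.00598) and -2.38 between the restored groups (SE 0.54, edgeR adjusted p = 0.0285), the second lost without any restored library other than Casp8 restored replicate 1 (adjusted p up to 0.0928). Col16a1, a minor fibril-associated chain, was not called; it was at 36.9, 16.2 and 14.3 TPM in Fadd knockout cells, against 11, 12.04 and 16.6 TPM in Casp8 knockout cells (log2 change 0.99, edgeR adjusted p = 0.229). In Fadd restored cells it was at 24.3, 11.4 and 10.0 TPM, against 21.9, 8.97 and 9.72 TPM in Casp8 restored cells, so replicate 1 was the highest in 3 of the 4 groups. Col9a3 and Col14a1 stayed at or below 0.30 TPM.

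With all 12 libraries and no block, the basement membrane chains passed no edgeR test of the filtered fit in any of the 5 comparisons. The genes of a type IV pair lie head to head: Col4a1 and Col4a2 on chromosome 8 have starts 21 bases apart, Col4a4 and Col4a3 on chromosome 1 have starts 72 bases apart, and Col4a6 and Col4a5 on the X chromosome have starts 1309 bases apart. Col4a1 was at 50.2, 38.8 and 43.4 TPM in Fadd knockout cells and 33.6, 36.6 and 41.8 TPM in Fadd restored cells. It was at 59.9, 25.04 and 32.4 TPM in Casp8 knockout cells and 10.2, 25.4 and 21.5 TPM in Casp8 restored cells. The Casp8 knockout and restored replicates 1 were the highest and lowest of the 12. The log2 change of Col4a1 between the knockout groups, Fadd over Casp8, was 0.35 (edgeR adjusted p = 0.661), and 0.74 without the replicate 1 libraries, which was called (edgeR adjusted p = 0.007). Between the restored groups it was 1.00 (edgeR adjusted p = 0.17), and 0.75 without them, also called (edgeR adjusted p = 0.00785). Col4a1 was at 1.38 to 2.56 times Col4a2 over the 12 libraries, a narrower range than for type I or type VI. The ratio was 2.08 to 2.56 in Fadd knockout and 1.66 to 2.41 in Fadd restored libraries. It was 1.60 to 2.14 in Casp8 knockout libraries and 1.38 to 1.63 in Casp8 restored libraries, the last without overlap with the Fadd line. The Casp8-line log2 changes were 0.98 for Col4a1 (edgeR adjusted p = 0.794) and 0.70 for Col4a2 (edgeR adjusted p = 0.877). Type IV genes summed to 16.7 to 24.7% of collagen TPM in Fadd knockout cells and 9.67 to 17.8% in Fadd restored cells, and to 2.13 to 13.04% in Casp8 knockout cells and 1.61 to 3.24% in Casp8 restored cells.

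Of the other type IV genes, Col4a5 was the most abundant. It was at 3.59 to 11.2 TPM in Fadd knockout and 5.99 to 18.1 TPM in Fadd restored cells, and at 5.34 to 13.1 TPM in Casp8 knockout and 4.32 to 15.6 TPM in Casp8 restored cells, with replicate 1 the highest in every group. In Casp8 restored replicate 1 it exceeded both Col4a1 and Col4a2. Col4a4 and Col4a3, which share a short head-to-head interval, had most of their few counts in Fadd knockout replicate 1. Col4a4 had 172, 35 and 10 counts in Fadd knockout cells, against 20, 1 and 0 in Fadd restored cells (log2 change 3.07, SE 1.30, edgeR adjusted p = 0.431). Without the replicate 1 libraries that change was 4.94 and called (edgeR adjusted p = 0.0478). In that fit only Fadd knockout libraries held 10 or more counts, so Col4a4 passed the filter through the group where it was high. Col4a3, too low to be tested, had 65, 10 and 6 counts in Fadd knockout cells, against 1, 0 and 0 in Fadd restored cells.

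Of the type VI chains, Col6a3 and Col6a4 were called between the lines. With all 12 libraries and no block, Col6a1 and Col6a2 passed no edgeR test in the filtered fit. Type VI microfibrils are built from the products of Col6a1, Col6a2 and Col6a3, and Col6a4, Col6a5 and Col6a6 code for chains that resemble that of Col6a3. Col6a1 was at 82.8, 32.5 and 29.6 TPM in Fadd knockout cells, against 44.9, 82.7 and 107 TPM in Casp8 knockout cells. It was at 76.5, 33.5 and 32.8 TPM in Fadd restored cells, against 119, 45.8 and 44.3 TPM in Casp8 restored cells. The ranges overlapped throughout, replicate 1 was the highest in 3 of 4 groups, and the log2 change between the knockout groups was -0.47 (edgeR adjusted p = 0.662). Without the replicate 1 libraries it was -1.44 and called (edgeR adjusted p = 4.35e-05), and between the restored groups it was then -0.37, also called (edgeR adjusted p = 0.0197), against -0.47 with them (edgeR adjusted p = 0.685). Col6a3 was at 0.10, 0.03 and 0.11 TPM in Fadd knockout cells, against 0.26, 17.9 and 37.0 TPM in Casp8 knockout cells. It was at 0.26, 0.06 and 0.23 TPM in Fadd restored cells, against 7.08, 9.26 and 8.10 TPM in Casp8 restored cells.

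Col6a3 (chromosome 1, 90765923 to 90843971, minus strand) had 22 to 119 counts per library in the Fadd line, and 65 counts in Casp8 knockout replicate 1. It was lower in the Fadd line between the knockout groups (log2 change -7.32, SE 1.39, edgeR adjusted p = 0.0075) and between the restored groups (-5.03, SE 1.25, edgeR adjusted p = 0.0389). Both calls were lost in limma-voom (adjusted p = 0.206 and 0.204), and the restored call also without any restored library other than Casp8 restored replicate 1 (adjusted p up to 0.146). Within the lines it was not called (-1.23 in the Fadd line and 1.07 in the Casp8 line). Col6a1 was 269 to 1083 times Col6a3 in TPM in Fadd knockout and 143 to 559 times in Fadd restored libraries, against 2.89 to 172.5 times in Casp8 knockout and 4.95 to 16.8 times in Casp8 restored libraries. Col6a2, which lies 85162 bases from Col6a1 on chromosome 10, was at 4.32 to 10.98 TPM in Fadd knockout and 4.88 to 11.62 TPM in Fadd restored cells, and at 6.56, 36.9 and 46.9 TPM in Casp8 knockout and 18.96 to 26.06 TPM in Casp8 restored cells. Its log2 change was -1.92 between knockout groups (edgeR adjusted p = 0.0762), and -2.39 without Casp8 knockout replicate 1 (edgeR adjusted p = 0.00603); DESeq2 (adjusted p = 0.0136) and the fit with no filter on low counts (edgeR adjusted p = 0.0477) called it too.

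Between the restored groups Col6a4 went the opposite way from Col6a3. It lies on chromosome 9 at 105989454 to 106096783, minus strand. It was at 1.38, 0.84 and 0.58 TPM in Fadd knockout cells, against 0.25, 0.21 and 0.36 TPM in Fadd restored cells. In the Casp8 line it was at 0.59, 0.16 and 0.39 TPM in knockout cells, against 0.03, 0.02 and 0.01 TPM in restored cells. In both lines the knockout libraries were above the restored ones with no overlap, at low levels. The Fadd-line change was 1.97 (SE 0.53, edgeR adjusted p = 0.125) and the Casp8-line change 4.07 (SE 0.61, edgeR adjusted p = 0.138), neither passing; DESeq2 called both (adjusted p = 0.00429 and 2.18e-09). The Casp8-line change also passed with no filter on low counts (edgeR adjusted p = 0.0285) and without Casp8 restored replicate 1 (edgeR adjusted p = 0.0488). Col6a4 was higher in Fadd restored than in Casp8 restored cells by 3.59 (SE 0.60, edgeR adjusted p = 0.00754). Fadd knockout over Casp8 knockout, the change was 1.5 (edgeR adjusted p = 0.1), and 1.45 without the replicate 1 libraries, which was called (edgeR adjusted p = 0.0124).

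**Figure D5:**
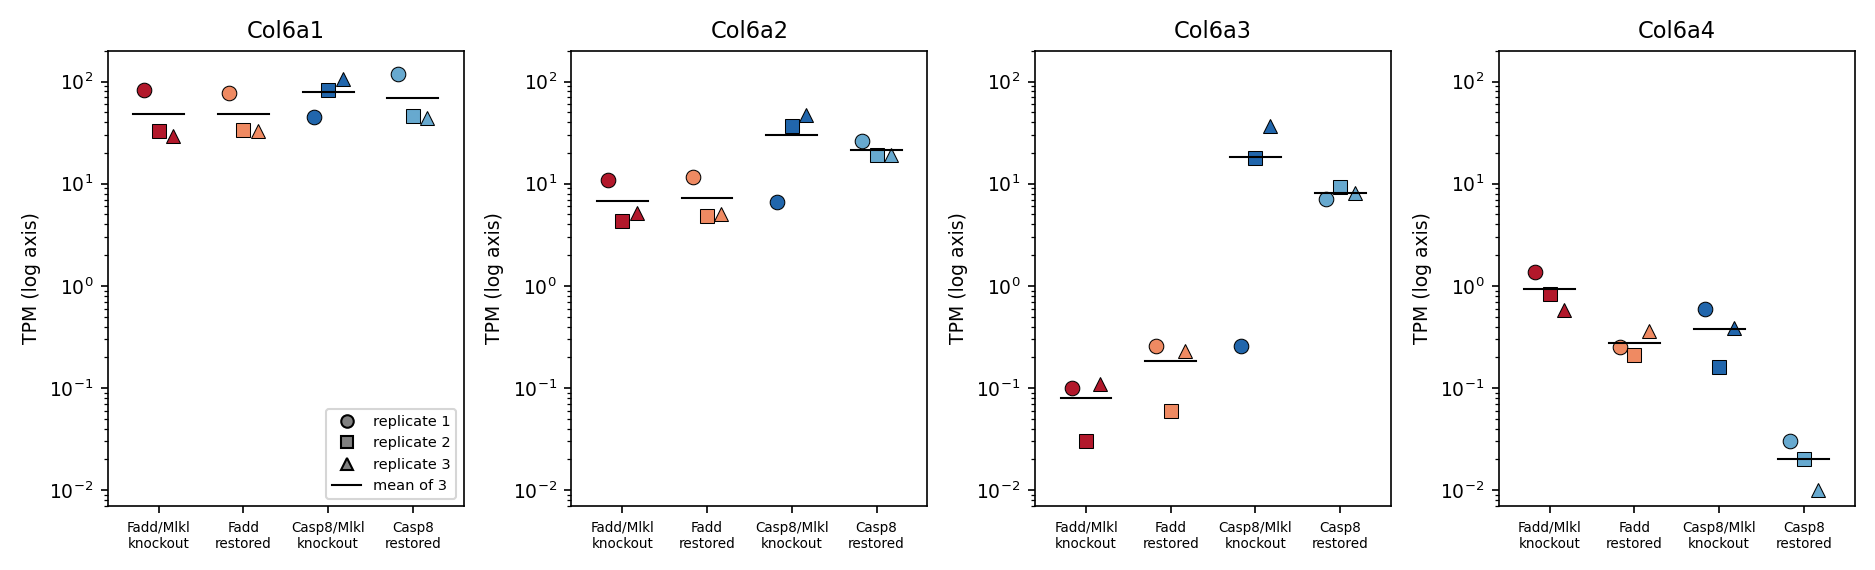
Levels of Col6a1, Col6a2, Col6a3 and Col6a4 in TPM (log axes), 1 point per library with the shape giving the replicate number and the line the mean of 3. Col6a3 lies at 0.03 to 0.26 TPM in the 6 Fadd-line libraries and in Casp8 knockout replicate 1, and at 7.08 to 37.0 TPM in the other 5 libraries.

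The hexagonal-network chains Col8a1 and Col8a2 form a lattice in vessel walls and the cornea, and of this class Col8a1 was called. Col8a1 was at 11.4, 15 and 14.5 TPM in Fadd knockout cells, against 34.5, 35.5 and 43.3 TPM in Casp8 knockout cells (log2 change -1.28, SE 0.25, edgeR adjusted p = 0.00873). It was at 13.7, 19.2 and 18.4 TPM in Fadd restored cells and 32.4, 16.6 and 16.1 TPM in Casp8 restored cells. Casp8 knockout libraries were above all others, Casp8 restored replicate 1 being the nearest. The Casp8-line change was 0.80 (SE 0.25, edgeR adjusted p = 0.651), and without Casp8 restored replicate 1 it was 1.16 and called (edgeR adjusted p = 0.0381). Col8a2 was at 9.26, 9.61 and 3.37 TPM in Fadd knockout cells, against 10.7, 17.3 and 9.05 TPM in Fadd restored cells. Col8a2 in the Casp8 line was at 1.04, 6.18 and 10.3 TPM in knockout cells, against 8.35, 0.32 and 0.18 TPM in restored cells. Here the replicate 1 libraries of the Casp8 line ran against the other 2 replicates, and no change was called with all 12. Without the replicate 1 libraries Col8a2 was higher in the Casp8 knockout than in the Casp8 restored libraries (4.95, edgeR adjusted p = 0.00357) and in the Fadd restored than in the Casp8 restored libraries (5.70, edgeR adjusted p = 0.000496; 2.15 and an edgeR adjusted p of 0.34 with all). Col10a1, of growth-plate cartilage, was at 2.77 TPM or less.

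Col7a1, the anchoring fibril chain of skin, was higher in Fadd restored than in Casp8 restored cells. It was at 10.4, 8.32 and 6.27 TPM in Fadd knockout cells, against 2.64, 5.18 and 6.29 TPM in Casp8 knockout cells (log2 change 1.10, edgeR adjusted p = 0.156). It was at 12.2, 10.4 and 7.30 TPM in Fadd restored cells, against 3.96, 1.70 and 1.39 TPM in Casp8 restored cells. The restored groups did not overlap (2.28, SE 0.46, edgeR adjusted p = 0.0178), a call lost without Fadd restored replicate 1 or Casp8 restored replicates 2 or 3 (adjusted p up to 0.0913). Col18a1, the multiplexin whose end fragment is endostatin, was at 3.87 to 5.60 TPM in Fadd restored cells, against 3.36, 0.32 and 0.72 TPM in Casp8 restored cells (2.01, edgeR adjusted p = 0.168). Without the replicate 1 libraries that change was 3.38 and called (edgeR adjusted p = 6.88e-05). With the replicate number as a block over all libraries, it was called between the restored groups (2.59, edgeR adjusted p = 0.015), as was Col10a1 (-3.41, edgeR adjusted p = 0.0274). With the number as a block within each line, Col18a1 was called beside Col1a2 in the difference between the lines (-1.72, edgeR adjusted p = 0.0487). Among the transmembrane collagens, Col25a1, known from neurons, had 34, 27 and 27 counts in Fadd knockout cells, 8, 2 and 4 in Fadd restored cells and 1 count over the Casp8 knockout group. It was called higher between the knockout groups (edgeR adjusted p = 0.00241). The ratio of counts per library total was 70.9, with a 95% counting interval of 12.4 to 2832. Only the Fadd knockout libraries reached the minimum count of 10, so Col25a1 passed the filter through the group where it was high. Its call therefore gives no separate support.

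The replicate 1 libraries changed how many genes were called. With those 4 libraries left out, which leaves 2 per group, 2 of the 29 were called higher and 1 lower in the Fadd line, where 6.1% of all genes tested were called. For the Casp8 line 10 were called higher and 0 lower, where 17.8% of all genes were called and 10.1% higher. The 10 were Col16a1, Col6a1, Col6a2, Col8a1, Col6a3, Col18a1, Col7a1, Col5a3, Col6a4 and Col8a2, with log2 changes of 0.79 to 4.95. The 2 genes added in the Fadd line were Col4a4 and Col25a1 (2.94, edgeR adjusted p = 0.0464). Both passed the filter there only through the Fadd knockout libraries, where they were high. The difference between the lines then called 10 lower, the knockout comparison 6 higher and 12 lower and the restored comparison 8 higher and 11 lower, where 11.2%, 41.5% and 33.5% of all genes were called. Every collagen gene called with all libraries was called without these 4 in the same comparison. Added in the difference between the lines were Col8a2, Col6a3, Col6a4, Col5a3, Col18a1, Col7a1, Col8a1, Col6a2 and Col6a1, with log2 differences of -5.89 to -1.06. Added between the knockout groups were Col3a1, Col5a3, Col6a2 and Col6a1 (-3.96 to -1.44) and Col7a1, Col4a1, Col18a1, Col6a4 and Col11a2 (0.45 to 1.75). Added between the restored groups were Col2a1, Col3a1, Col10a1, Col6a2, Col5a3 and Col6a1 (-3.14 to -0.37) and Col8a1, Col16a1, Col4a1, Col11a2, Col18a1 and Col8a2 (0.27 to 5.70). With all libraries, 6 of the 29 in the Casp8 line had an unadjusted p under 0.05, all higher, beside 4.12% of all genes higher at that level. The labels do not say how the replicate 1 cultures differed.

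The 15 collagen genes below the filter had few counts. They were Col13a1, Col15a1, Col17a1, Col19a1, Col20a1, Col22a1, Col24a1, Col26a1, Col28a1, Col4a3, Col4a6, Col6a5, Col6a6, Col9a1 and Col9a2. None exceeded 0.19 TPM in a library or 118 counts over the 12, and each had at least 1 count. In all, 21 of the 44 genes were under 1 TPM in every library.

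Proteins that fold, trim, cross-link, bind and break down collagen were read from a list of 64 genes, of which 59 were tested. In the Fadd line, 0 were called higher and 1 lower, against 1.52% of all genes tested in either direction. For the Casp8 line edgeR called 0 in either direction; at an unadjusted p under 0.05 there were 4 higher and 0 lower, against 4.12% of all genes higher. For the knockout groups 1 was called higher and 13 lower, against 3.46% and 7.01% of all genes. Between the restored groups 1 was called higher and 5 lower, against 2.93% and 3.4%. The median log2 changes of the 59 were -0.27, 0.09, -0.66 and -0.30. The gene called in the Fadd line was Loxl2, a lysyl oxidase that cross-links collagen. Loxl2 was at 0.03, 0.12 and 0.08 TPM in Fadd knockout cells, against 39.6, 12.2 and 3.00 TPM in Fadd restored cells (log2 change -7.69, SE 1.22, edgeR adjusted p = 0.00907). Casp8 knockout cells had 8.64, 18.1 and 22.3 TPM of it, against 1.31, 16.1 and 11.1 TPM in Casp8 restored cells. Its difference between the lines was -8.38 (SE 1.47, edgeR adjusted p = 0.022). Loxl2 and Col1a2 were thus both called lower in the Fadd line and in the difference between lines. Between the restored groups Col1a2 was called lower, while Loxl2 was not called and its ranges overlapped.

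Of the other lysyl oxidases, Lox and Loxl1 were called between the lines, and Loxl3 and Loxl4 in no comparison by edgeR with all libraries (-0.86 and 0.46 between the knockout groups, edgeR adjusted p = 0.277 and 0.387). Lox was at 6.02, 6.08 and 3.34 TPM in Fadd knockout cells, against 19.6, 152 and 193 TPM in Casp8 knockout cells (-4.34, edgeR adjusted p = 0.00191), and Loxl1 at 3.21, 5.26 and 5.64 TPM, against 22.9, 66.6 and 82.4 TPM (-3.42, edgeR adjusted p = 0.00204). Loxl1 was also lower between the restored groups (-2.82, edgeR adjusted p = 0.00964), where Lox was not called (-1.53, edgeR adjusted p = 0.151). Tll1, a propeptide protease, was lower in the Fadd line in both pairings (-5.85 between knockouts and -6.14 between restored groups, edgeR adjusted p = 0.00222 and 0.00412). Aspn, a small proteoglycan on fibrils, was lower in both as well (-5.31 and -4.25, edgeR adjusted p = 0.0127 and 0.0389), as were the collagenase Mmp14 (-1.38 and -1.09) and the collagen receptor chain Itgb1 (-1.04 and -0.90). Between the knockout groups the lysyl hydroxylase partner P3h4, the chaperone Fkbp10, the transcription factor Creb3l1, the propeptide protease Adamts3, the inhibitor Timp1 and the collagen receptor chain Itga11 were also lower, and the proteoglycan Dcn, at 0.57 TPM or less, was higher. Itga2, at 0.58 TPM or less, was higher between the restored groups. The collagen chaperone Serpinh1 was at 189 to 531 TPM over the 12 libraries and was not called in any comparison.

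Markers of other cell types moved with the lines in part. Of the neural markers, Map2 was at 2.24 to 2.81 TPM in Fadd knockout and 4.18 to 5.08 TPM in Fadd restored libraries, and at 8.79 to 51.3 TPM in Casp8 knockout and 28.2 to 60.1 TPM in Casp8 restored libraries. Tubb3 was at 1.67 to 3.27 TPM in Fadd knockout and 1.08 to 2.44 TPM in Fadd restored libraries, and at 4.37 to 11.4 TPM in Casp8 knockout and 2.94 to 3.69 TPM in Casp8 restored libraries. The defining marker Sox10 was at 0 in all 12. Map2 was lower in the Fadd line between the knockout and between the restored groups (-3.51 and -3.44, edgeR adjusted p = 0.00226 and 0.00541), and Tubb3 between the knockout groups (-1.65, edgeR adjusted p = 0.0236).

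The fibroblast list, carried by Vim and S100a4, summed to 1148 to 1576 TPM in Fadd knockout and 1487 to 1832 TPM in Fadd restored libraries, and to 1437 to 2253 TPM in Casp8 knockout and 1819 to 2283 TPM in Casp8 restored libraries. Of its 10 genes 8 were tested. Between the knockout groups 1 was called higher and 4 lower, against 3.46% and 7.01% of all genes tested. Between the restored groups 1 was called higher and 2 lower, against 2.93% and 3.4%. Within the Fadd line and the Casp8 line 0 were called by edgeR, against 1.52% and 0.0061% in either direction. The mesenchymal transcription factor Prrx1 was at 0.43 to 0.82 TPM in Fadd knockout and 0.32 to 1.24 TPM in Fadd restored libraries, and at 19.5 to 91.2 TPM in Casp8 knockout and 50.9 to 53.99 TPM in Casp8 restored libraries. It was lower in the Fadd line in both pairings (-6.51 and -6.0, edgeR adjusted p = 0.000309 and 0.00107). Fn1, which codes for the matrix protein fibronectin, was lower between the knockout groups (-3.26, edgeR adjusted p = 0.00321), as was Vim (-0.76, edgeR adjusted p = 0.047). The transcription factor Twist2 was higher in the Fadd line in both pairings (1.87 and 1.56, edgeR adjusted p = 0.01 and 0.0333), and Twist1 was lower in both (-0.88 and -1.03, edgeR adjusted p = 0.0441 and 0.0336).

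The epithelial list, nearly all Krt19, summed to 0.38 to 2.05 TPM in Fadd knockout libraries, against 2.68 to 15.8 TPM in Fadd restored libraries, without overlap. Its sum was 2.33 to 6.55 TPM in Casp8 knockout and 1.68 to 2.33 TPM in Casp8 restored libraries. Neither Krt19 (-2.36, edgeR adjusted p = 0.219) nor Epcam (-4.69, edgeR adjusted p = 0.172) was called in the Fadd line. Epcam, at 0.14 TPM or less in the knockout groups, was lower between them (-5.14, edgeR adjusted p = 0.0349), as were Runx2 of the bone list (-1.41, edgeR adjusted p = 0.0146) and Acta1 of the muscle list (-4.19, edgeR adjusted p = 0.0188). The leukocyte list, mostly Cd74, summed to 3.5 to 38.3 TPM in Fadd knockout libraries, against 0.75 to 6.52 TPM in Fadd restored libraries. Its defining marker Ptprc was at 0 in both groups. The part of these markers in the collagen differences was not tested.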

How the data were processed

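Total RNA of 12 cultures was sequenced and quantified by the authors. Per the labels' protocols, a stranded total RNA kit was used, Cutadapt trimmed the reads within Trim Galore, STAR aligned them to mm10 with GENCODE M22, and RSEM counted genes; the submitters' processing notes give Trim Galore 0.5.0 and STAR 2.7.5a. No source used here gives the strand setting of the counting. The authors deposited, per the file headers, an expected count, a TPM and an FPKM for each gene. The 92 spike-in rows were left out. Levels are the deposited TPM. TPM is diluted by the non-coding Rn7s1, which held 21.75 to 28.92% of it. FPKM served as an alternative for the ratio of the type I chains. A further deposited table of retroviral regions, with 12 sample columns, was not used here.

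Expected counts (96.05% of those above 0 exactly whole as deposited, with no tolerance) were rounded, filtered with filterByExpr (minimum count 10), scaled by TMM and fitted in edgeR 4.0.16 (R 4.3.3) over all 12 libraries with 1 mean per group; the biological coefficient of variation was 0.37. Alternatives used DESeq2 1.42.0 and limma 3.58.1. Standard errors come from the change and its F statistic. Type I ratios had 0.01 TPM added and exact permutation tests. Counting intervals and floors cover counting error only. Positions come from GENCODE M21, which matched all 44 genes; 16 overlap no other annotated gene, and reads shared with overlapping genes cannot be assigned here. The fit was tested on simulated data.

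Members and lists were chosen with earlier results of these data known. Genes named are those with a mean of at least 10 TPM in a group, those called in any comparison, Col1a1 and Col1a2, list members called, and neighbours within 500 kb; other names were chosen after seeing values. Libraries sharing a replicate number deviated from their group means together within the Fadd line (correlations 0.66, 0.391 and 0.639), within the Casp8 line (0.203, 0.305 and 0.127) and between the restored groups (0.317, 0.161 and 0.243), but not between the knockout groups (-0.252, 0.0711 and -0.371). The main edgeR fit and the exact permutation tests did not use the numbers, so their p-values are unpaired. Pairing by number entered only in alternatives, such as the replicate block, and in side-by-side readings of libraries. What a number marks is not stated in the labels.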

Additional observations from a re-analysis of the deposited data

Results flagged for a closer look

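The change of Col1a2 differed between the 2 lines. The Fadd-line log2 change (knockout over restored) minus the Casp8-line log2 change was -7.76 (SE 0.92, edgeR adjusted p = 0.00236), the difference itself being the tested quantity. Col1a2 was at 0.07 to 0.26 TPM in Fadd knockout cells, against 14.1 to 51.8 TPM in Fadd restored cells, and at 218 to 876 TPM in Casp8 knockout cells, against 375 to 886 TPM in Casp8 restored cells. No other collagen gene passed this test with all libraries and no replicate block. With the replicate number as a block within each line, Col18a1 passed too (-1.72, edgeR adjusted p = 0.0487). The difference lay between -8.32 and -7.26 over the alternatives run, and its adjusted p did not exceed 0.0168.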

How the results depend on the processing

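Col1a2 kept its direction and its call under every alternative run in the Fadd line, in the difference between lines, between the knockout groups and between the restored groups (adjusted p up to 0.00891, 0.0168, 0.00206 and 0.0382). In the Casp8 line its change turned negative in limma-voom (-0.047) and ran from -0.23 to 0.45 with a library left out, and was 0.87 without the replicate 1 libraries; that of Col1a1 turned negative in limma-voom (-0.12), with a within-line replicate block (-0.051), and ran from -0.26 to 0.61 with a library left out, and was 0.89 without the replicate 1 libraries. The ratio of the type I chains in the Casp8 line turned negative without Casp8 knockout replicate 1 or Casp8 restored replicate 2 (range -0.15 to 0.20). The cause was not tested. The collagen share, 0.0362, 0.0571, 0.183 and 0.157% of TPM in Fadd knockout, Fadd restored, Casp8 knockout and Casp8 restored cells, was 0.341, 0.521, 1.45 and 1.26% of expected counts and 0.126, 0.182, 0.583 and 0.466% of protein-coding TPM.

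Counts of called collagen genes were, in the Fadd line, 2 with no filter on low counts, 3 in DESeq2 and 3 without the replicate 1 libraries. Over all genes tested these settings called 311 of 27519, 4.25% and 6.1%. In the Casp8 line they were 1 with no filter, 1 in DESeq2, 10 without the replicate 1 libraries and 0 to 2 with a library left out. Over all genes these settings called 4 of 27519, 0.872%, 17.8% and 0 to 22 genes. For the difference between lines they were 2 with the within-line replicate block, 1 to 2 with a library left out and 10 without the replicate 1 libraries. Over all genes these settings called 239 of 16396, 90 to 241 genes and 11.2%. Between the knockout groups they were 7 in limma-voom, 8 in the fit of those groups alone, 14 in DESeq2 and 18 without the replicate 1 libraries. Over all genes these settings called 1423 of 16396, 1046 of 15564, 16.8% and 41.5%. Between the restored groups they were 5 in limma-voom, 2 to 10 with a library left out and 19 without the replicate 1 libraries. Over all genes these settings called 820 of 16396, 301 to 2251 genes and 33.5%. The replicate block changed no call within either line; over all libraries it added Col11a2 between the knockout groups (1.78, edgeR adjusted p = 0.0463). A block within each line leaves out the spread between replicates when lines are compared, so its values are not given there. Genes with few counts (Col25a1, Col4a3, Col4a4, Col14a1, Col23a1) are limited by depth.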
